A study of Homo sapiens with 6 samples.

Results

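All regions of chromosome 6 that were listed as bound by estrogen receptor alpha (ERα, the product of ESR1) were followed across 6 chromatin immunoprecipitation sequencing (ChIP-seq) libraries. Peaks of the 6 deposited lists that overlapped by at least 1 bp were merged into 175206 regions on the 22 autosomes and X, and the 10152 of them on chromosome 6 (5.79%) are described here. The chromosome was chosen by the Y537S over WT ratios of summit fragments at its regions, which are low as a whole, so those chromosome-wide ratios describe the choice and carry no test. What the choice did not use is how windows and single loci differ from the chromosome's own median, and the K303R and estradiol comparisons. Before that median is taken away, the sign of the Y537S over WT ratio in arms and windows goes with the choice.

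The cells were MDA-MB-453, an androgen receptor-positive line from a human breast carcinoma with little ERα of its own, engineered for inducible expression of Y537S, K303R or wild-type (WT) ERα. The 6 groups were Y537S with 1 nM estradiol (E2), Y537S without E2, K303R with E2, K303R without E2, WT with E2 and WT without E2. All 6 had 2 µg/mL doxycycline, which turns the receptor on, for 2 days, following 2 days of culture in medium with 10% fetal bovine serum. The antibody was D8H8. The labels do not say whether each receptor line is 1 clone, and the peak names of both Y537S lists carry another date-like tag than those of the other lists, so receptor line and tag cannot be told apart. Each group is 1 library with no replicate, and differences below compare libraries, not conditions. No gene expression was measured, so the identity of the line could not be checked against marker genes.

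ERα is a nuclear receptor that binds DNA as a dimer at estrogen response elements, and through other factors at sites without one; E2 binding moves helix 12 of its ligand-binding domain so that coactivators can dock. Y537S, found in endocrine-resistant breast cancer, holds that helix in the active position without hormone, and K303R, in the hinge, was described in breast lesions as a hypersensitive receptor. Chromosome 6 carries ESR1 itself on its long arm and the major histocompatibility complex and a large histone gene cluster on its short arm. The number of fragments recovered at a site in ChIP-seq follows receptor occupancy, the number of copies of the DNA, chromatin accessibility and the efficiency of the precipitation together, and the files do not separate these.

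Promoter sequences show what ERα-bound DNA on this chromosome looks like at gene starts. Among RefSeq promoter windows (GRCh38.p14, 250 bases before to 50 bases after a gene start), 29 on chromosome 6 held the summit of one of 28 well-covered regions (defined below). Capitals mark the estrogen response element, which is GGTCA and TGACC with any 3 bases between them and reads the same on both strands, or, where it is absent, a single arm (GGTCA or TGACC), searched on both strands. The first sequence is shown because it was the one chromosome 6 promoter with the full element, the second because its region was far lower in K303R than in WT, and the third because its region was higher in Y537S than in WT. They lie at chr6:44257479-44257778, chr6:131000680-131000979 and chr6:7541375-7541674, all read from the minus strand:
SLC35B2: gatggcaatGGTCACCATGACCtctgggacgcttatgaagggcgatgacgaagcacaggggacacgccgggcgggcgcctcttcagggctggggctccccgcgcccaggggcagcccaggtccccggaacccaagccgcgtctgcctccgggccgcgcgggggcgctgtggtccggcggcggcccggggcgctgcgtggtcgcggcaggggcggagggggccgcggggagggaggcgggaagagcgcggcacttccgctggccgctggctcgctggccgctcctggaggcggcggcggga
EPB41L2: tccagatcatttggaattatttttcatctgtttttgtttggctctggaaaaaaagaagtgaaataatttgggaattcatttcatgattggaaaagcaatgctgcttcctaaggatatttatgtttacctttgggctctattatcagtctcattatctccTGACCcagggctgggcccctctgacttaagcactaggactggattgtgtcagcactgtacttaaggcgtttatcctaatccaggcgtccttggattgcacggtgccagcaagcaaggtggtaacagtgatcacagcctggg
DSP-AS1: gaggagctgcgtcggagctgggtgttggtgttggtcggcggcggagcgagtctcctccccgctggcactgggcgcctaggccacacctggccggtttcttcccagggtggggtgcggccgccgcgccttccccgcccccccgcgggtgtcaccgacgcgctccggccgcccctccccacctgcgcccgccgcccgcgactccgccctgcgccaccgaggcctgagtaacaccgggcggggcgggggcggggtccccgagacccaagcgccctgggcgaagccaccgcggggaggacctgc

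The full element occurred in 20 of 35116 RefSeq promoter windows (0.0570%) and in 1 of the 2083 on chromosome 6. A single arm occurred in 37.4% of all windows, in 36.5% of those on chromosome 6 and in 20 of the 29 that held a summit; every full element also holds both arms. In the SLC35B2 promoter, which serves a transporter of the sulfate donor PAPS into the Golgi, the summit lay 226 bases before the gene start and the element 241 bases before it. The window of EPB41L2, a membrane skeleton gene, holds a single arm, and that of DSP-AS1, an antisense RNA at the desmoplakin gene, holds none. A match describes letters in a window and does not show that the receptor binds through them.

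Chromosome 6 regions were missing from the Y537S lists more often than regions of other chromosomes. Of the 10152 chromosome 6 regions, the Y537S list with E2 held 55.1%, against 63.6% of regions elsewhere, and the Y537S list without E2 held 59.0%, against 66.1% elsewhere. The K303R lists held 59.1% with E2 and 59.7% without E2 on chromosome 6, against 60.1% and 59.5% elsewhere. The WT lists held 70.0% with E2 and 74.1% without E2 on chromosome 6, against 68.0% and 70.5% elsewhere. Chromosome 6 thus lay well under the rest in both Y537S lists, near the rest in K303R and above it in WT. A list holds a peak only where its summit fragments suffice, so the low Y537S shares go with the choice of the chromosome. The regions were merged from all 6 lists, so fewer Y537S peaks also raise the shares of the other lists.

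Which lists a region lacked also goes with the choice of the chromosome and is given as a description. A total of 329 chromosome 6 regions (3.24%) were missing from both Y537S lists and present in the other lists, against 2.04% of regions elsewhere. The reverse pattern, presence in both Y537S lists alone, was found for 140 regions (1.38%), against 2.36% elsewhere. Absence from both K303R lists alone was found for 289 regions (2.85%), against 3.13% elsewhere. These were weak peaks: the regions missing only from Y537S had a median of 23 fragments in their highest library.

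A total of 3676 chromosome 6 regions (36.2%) were in all 6 lists, against 38.8% elsewhere, and 2299 (22.6%) were in 1 list only. Ratios between libraries were taken where every library gave a count: regions in all 6 lists with a mean of at least 50 fragments at the summit, called well covered here. On chromosome 6, 1643 of the 10152 regions (16.2%) met this, against 19.4% elsewhere; 6476 were missing from at least 1 list and 2033 were in all lists with a lower mean. The members nearest to the limit had means of 49.8 fragments just outside and 50 just inside it. Region width was alike, with a median of 669 bp for well-covered regions on chromosome 6 and 670 bp elsewhere.

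At the well-covered regions the Y537S libraries carried fewer fragments on chromosome 6 than elsewhere, and the WT libraries slightly more. The filter uses the mean of all 6 libraries. Where Y537S is low it favours regions that are high in the other libraries, so the WT excess is not read as a result. The median was 94 fragments in Y537S with E2 and 84 in Y537S without E2, against 113 and 100 on other chromosomes in the same libraries. It was 89 in K303R with E2 and 75 in K303R without E2, against 90 and 73 elsewhere. It was 108 in WT with E2 and 105 in WT without E2, against 102 and 100 elsewhere. Chromosome 6 held 4.01% of all summit fragments in each of both Y537S libraries, 4.72% and 4.84% in K303R with and without E2, and 5.03% and 5.08% in WT with and without E2.

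Each library was scaled to its median over the 33626 well-covered regions of all chromosomes. On that scale the median Y537S over WT ratio of chromosome 6 was 0.765 with E2 and 0.756 without E2, that is −0.39 and −0.40 on the log2 scale, the lowest of 23 chromosomes in both treatments. Chromosome X followed at −0.30 with E2 and −0.29 without E2, and chromosome 15 at −0.215 in both. The lowest 20 Mb window of X stood at −0.52 and −0.60, under the lowest of chromosome 6 at −0.46 and −0.44. A low level in Y537S was thus not particular to chromosome 6. Relative to the median of all regions the difference was −0.32 with E2 and −0.34 without E2, and this difference does not depend on how whole libraries are scaled. With E2, 82.1% of chromosome 6 regions lay below a ratio of 1, against 54.4% elsewhere; without E2, 80.9% did, against 53.9% elsewhere. The K303R over WT medians were −0.05 with E2 and −0.03 without E2, and chromosome 6 ranked 5th and 6th from the lowest.

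The local background around the peaks was low in Y537S on chromosome 6 as well. This background is the expected number of fragments that the peak caller set beside each summit, recovered here from the deposited fold and p. The Y537S over WT log2 ratio of local background on chromosome 6 minus that of all regions was −0.38 with E2 and −0.39 without E2. On chromosome X it was −0.26 and −0.28. The deposited fold enrichment, which divides the summit by that background, differed on chromosome 6 from all regions by −0.02 in both treatments. That near-zero value is not particular to chromosome 6: the fold medians of all chromosomes lay between −0.035 and 0.02 with E2 and between −0.02 and 0.03 without E2, chromosomes 15, 19 and X included. Across the peaks of a list, summit fragments and local background had a Spearman correlation of 0.81 to 0.84. Whether the background counts fragments of the same library or of a control is not stated. The fold differed more at single called loci, with the limit given below.

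**Figure D1:**
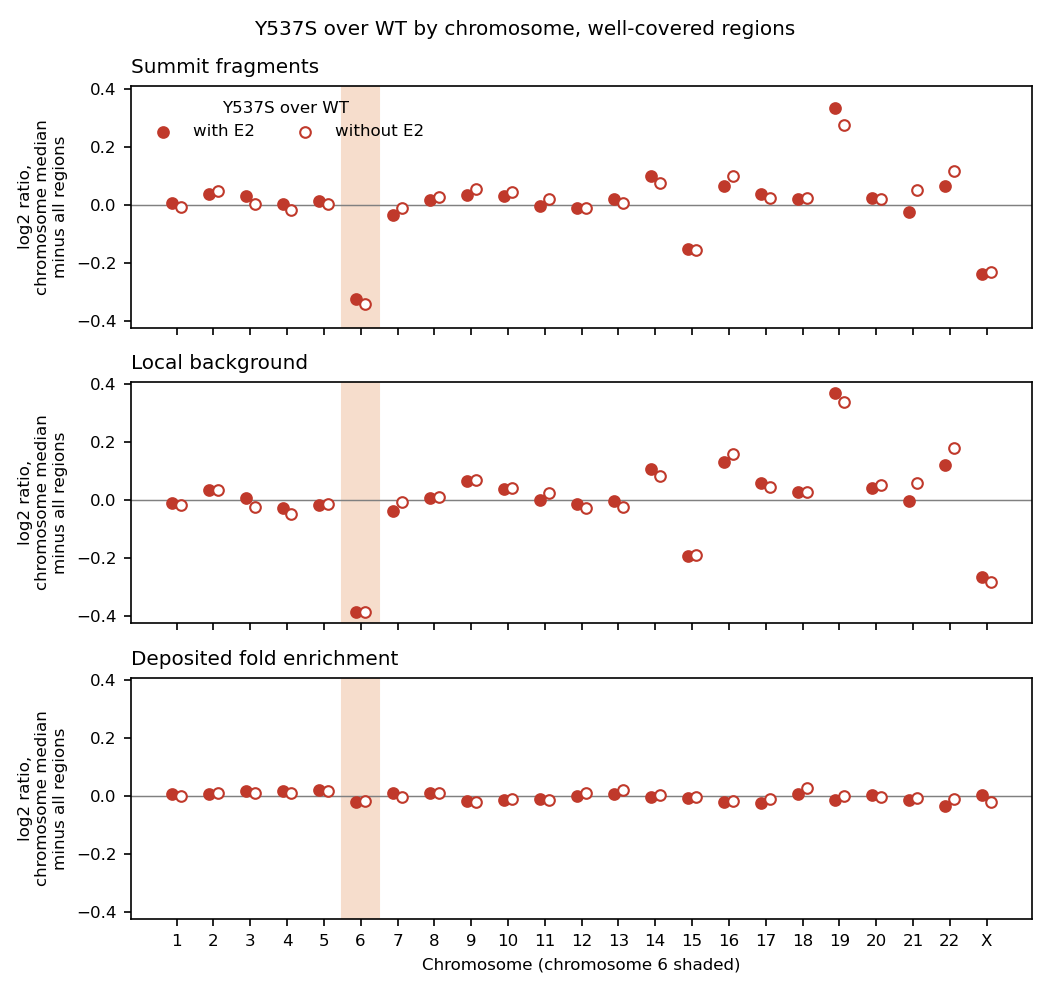
Medians of the Y537S over WT log2 ratio for each chromosome minus the median of all well-covered regions, for summit fragments (top), recovered local background (middle) and deposited fold enrichment (bottom), with E2 (filled) and without E2 (open). Chromosome 6 (shaded) is lowest for fragments at −0.32 and −0.34 and for background at −0.38 and −0.39, while the fold medians of all chromosomes lie between −0.035 and 0.027.

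Along the chromosome the Y537S libraries were low from end to end. The regions ran from position 186393 to 170585316 (hg38), with 1 stretch of 3.16 Mb without any region, chr6:57522411-60679255, taken here as the border of the short and the long arm. The short arm held 734 well-covered regions with a median Y537S over WT log2 ratio of −0.38 with E2 and −0.41 without E2. The long arm held 909 with −0.39 in both treatments.

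The level of each library in windows of 20 Mb, divided by the library's own genome-wide median, shows which library moved. In Y537S the level lay between 0.754 and 0.915 with E2 and between 0.763 and 0.924 without E2 over the 9 windows, all below 1. In WT it lay between 0.990 and 1.15 with E2 and between 0.905 and 1.15 without E2. In K303R it was lowest from 60 to 80 Mb, at 0.767 in both treatments, and highest on the distal short arm, at 1.14 from 0 to 20 Mb with E2 and 1.14 from 20 to 40 Mb without E2.

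**Figure D2:**
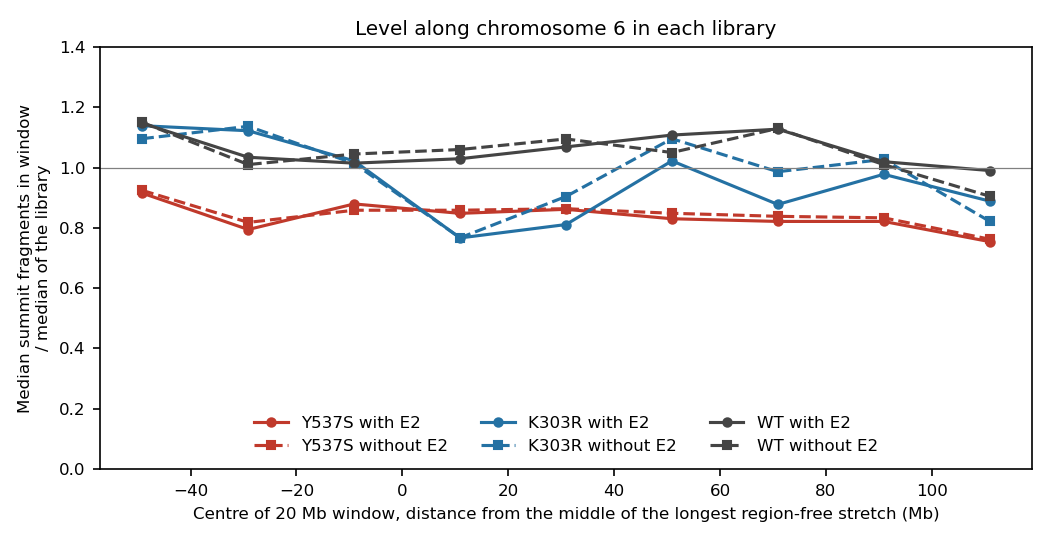
Median summit fragments of well-covered regions in 20 Mb windows divided by the library's median over all chromosomes, against distance from the middle of the longest region-free stretch (Mb; negative is the short arm). Both Y537S lines stay between 0.754 and 0.924, and the K303R lines dip to 0.767 just beyond the region-free stretch.

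The signs of the Y537S over WT ratios in windows go with the choice of the chromosome and carry no test. In windows of 5 Mb the Y537S over WT median was below 0 in 35 of 35 windows in both treatments. It ranged from −0.59 to −0.21 with E2 and from −0.75 to −0.18 without E2, with SDs between windows of 0.0868 and 0.117 on the log2 scale. The lowest window with E2 was 120 to 125 Mb (37 regions) and the lowest without E2 was 55 to 60 Mb, which rests on 12 regions and stood at −0.50 with E2. The window from 15 to 20 Mb was among the 3 lowest in both treatments, at −0.51 with E2 and −0.57 without E2. No window was among the 3 highest in both treatments; 85 to 90 Mb stood highest with E2 at −0.21 and 150 to 155 Mb without E2 at −0.18. In windows of 2 Mb, 80 of 81 medians were below 0 in each treatment; the exception was 70 to 72 Mb with E2 (0.02, 11 regions) and 88 to 90 Mb without E2 (0.10, 17 regions).

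K303R varied more along the chromosome than Y537S, around a median near 0. Its 5 Mb medians ranged from −0.81 to 0.41 with E2 and from −0.93 to 0.67 without E2, with SDs of 0.234 and 0.246, and 26 and 25 of 35 windows were below 0. The lowest window in both treatments was 60 to 65 Mb (12 regions), directly beyond the region-free stretch, and the next was 90 to 95 Mb (21 regions), at −0.66 with E2 and −0.50 without E2. The highest was 170 to 175 Mb, which rests on 5 regions. The next, 30 to 35 Mb with 92 regions, spans most of the major histocompatibility complex and stood at 0.25 with E2 and 0.20 without E2. Without these windows of 12 and 5 regions the K303R medians ran from −0.66 to 0.25 with E2 and from −0.50 to 0.20 without E2.

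**Figure D3:**
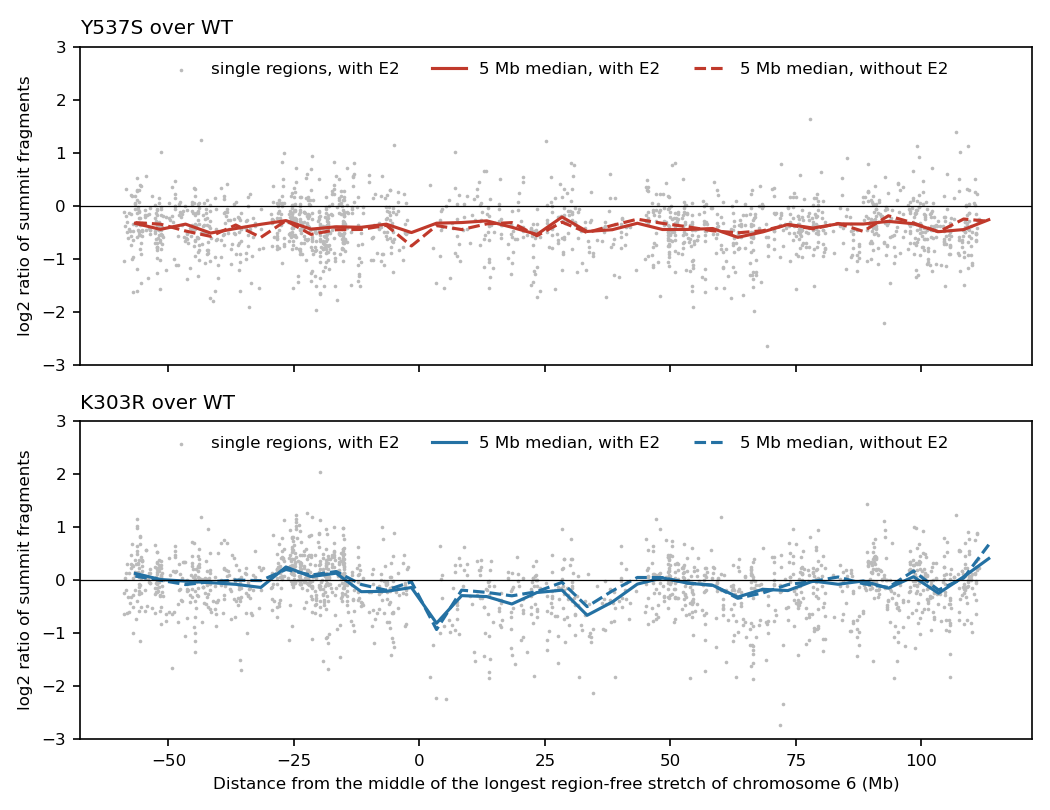
Log2 ratio of summit fragments for single well-covered regions with E2 (grey points) and 5 Mb medians with E2 (solid) and without E2 (dashed), for Y537S over WT (top) and K303R over WT (bottom), against distance from the middle of the longest region-free stretch (Mb). The Y537S medians stay below 0 in 35 of 35 windows, and the K303R medians cross 0 several times and reach −0.93 and 0.67 in windows of 12 and 5 regions.

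Gene density moved with the K303R profile and hardly with that of Y537S. Over the 35 windows the Spearman correlation of the median log2 ratio with the number of protein-coding genes was 0.49 with E2 and 0.45 without E2 for K303R over WT, and 0.20 and 0.10 for Y537S over WT; both use the same WT libraries and the same windows. On chromosome 6, 741 well-covered regions (45.1%) lay inside a protein-coding gene, against 53.5% elsewhere, and 22.9% lay over 100 kb from one, against 15.5% elsewhere. The Y537S over WT median was −0.37 inside genes and −0.49 far from them with E2, and −0.36 and −0.48 without E2. Other chromosomes had −0.0047 and −0.16 with E2, and 0.0049 and −0.16 without E2. So both classes of region were low on chromosome 6, and the step between them was about as large elsewhere.

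Strong and weak regions were low alike. Among regions in all 6 lists with a mean of 20 to 50 fragments, which are outside the well-covered set, chromosome 6 was below the rest by a Y537S over WT log2 difference of −0.33 with E2 and −0.37 without E2. The difference was −0.37 and −0.39 at 50 to 100 fragments, −0.35 and −0.35 at 100 to 200, and −0.29 and −0.31 at 200 to 1000. The K303R over WT difference was −0.12 and −0.11 in the weakest class, −0.13 and −0.09 at 50 to 100 fragments, and −0.03 and −0.02 in the strongest.

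After the chromosome median was taken from each ratio, differences at single loci remained in both directions. The spread of the centred Y537S over WT log2 ratios had an SD of 0.484 with E2 and 0.527 without E2, which is 2.24 and 2.36 times the SD that counting error alone gives. The corresponding multiples on other chromosomes were 2.43 and 2.61. The centred ratios with E2 and without E2 had a Pearson correlation of 0.72 over the 1643 regions; these share no library but come from the same pair of lines. The corresponding correlation for K303R over WT was 0.75.

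A locus was called different between libraries when its centred ratio was at least 1.5-fold and its exact counting interval at an error level of 0.001 excluded 1, and it was counted for a receptor only when called alike with and without E2. By this rule 42 chromosome 6 regions were higher in Y537S than in WT (2.56%), against 4% of well-covered regions on all chromosomes centred in the same way. A total of 44 were lower (2.68%), against 3.44% on all chromosomes. Both shares are under the background, so after centring single loci stood apart no more often on chromosome 6 than over all chromosomes. In single treatments 82 were higher and 101 lower with E2 (4.99% and 6.15%), against 7.23% and 6.35% of all regions, and 111 and 96 without E2 (6.76% and 5.84%), against 9.17% and 6.98%. Without centring the counts were 7 higher, against 3.34% of all regions, and 240 lower (14.6%), against 4.79%. Since the chromosome median is negative on the log2 scale, leaving out the centring lowers every ratio. All 44 of the centred lower regions therefore had to stay called. Of the 42 higher ones, 7 were also called without centring.

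K303R had 31 regions higher than WT (1.89%), against 1.86% on all chromosomes, and 59 lower (3.59%), against 3.83%, which is close to the background in both directions. In single treatments 76 were higher and 142 lower with E2 (4.63% and 8.64%), against 4.7% and 8.45% of all regions, and 70 and 100 without E2 (4.26% and 6.09%), against 4.09% and 6.34%. With centring on 5 Mb windows, 17 of the 31 and 35 of the 59 stayed called. Of all 1643 well-covered regions, 22.9% lay over 100 kb from a protein-coding gene and 909 were on the long arm. Of the regions lower in K303R, 24 (40.7%) lay that far from a gene and 48 were on the long arm; of those higher, 2 (6.45%) lay that far out and 10 were on the long arm. For Y537S the lower regions numbered 14 (31.8%) over 100 kb from a gene and 33 on the long arm, and the higher ones 7 (16.7%) and 27. The regions higher in Y537S fell in 22 of the 35 windows of 5 Mb and those lower in 25, but not evenly. Of the 42 higher ones, 6 lay at 45 to 50 Mb, which holds 35 of the 1643 well-covered regions. Of the 44 lower ones, 9 lay at 125 to 130 Mb, which holds 51 of the 1643. That window also held the most regions lower in K303R, 8 of 59. Those higher in K303R were most numerous at 30 to 35 Mb, with 7 of 31 where 92 of the 1643 lie.

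At these called loci the other measures moved too. For the 42 regions higher in Y537S the median centred fragment ratio was 1.02 on the log2 scale with E2 and 1.09 without E2, and the deposited fold stood 0.18 and 0.19 above the chromosome 6 median. For the 44 lower ones the fragment ratio was −1.04 in both treatments, and the fold stood at −0.30 with E2 and −0.38 without E2 relative to the chromosome. The fold moved by a part of the fragment ratio at these loci. It adds 1 to summit and background alike, so an equal change of both also shifts it where background is low. How much of the shift comes from this was not measured, and the fold is not read as enrichment particular to single loci. Local background moved with the summits at these loci as well, by 1.01 and 1.11 at the higher ones and by −0.93 and −0.95 at the lower ones. These loci were chosen by their summit fragments, and the background was recovered from the fold and p of the same peaks. Why it moved with the summits was not tested.

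**Figure D4:**
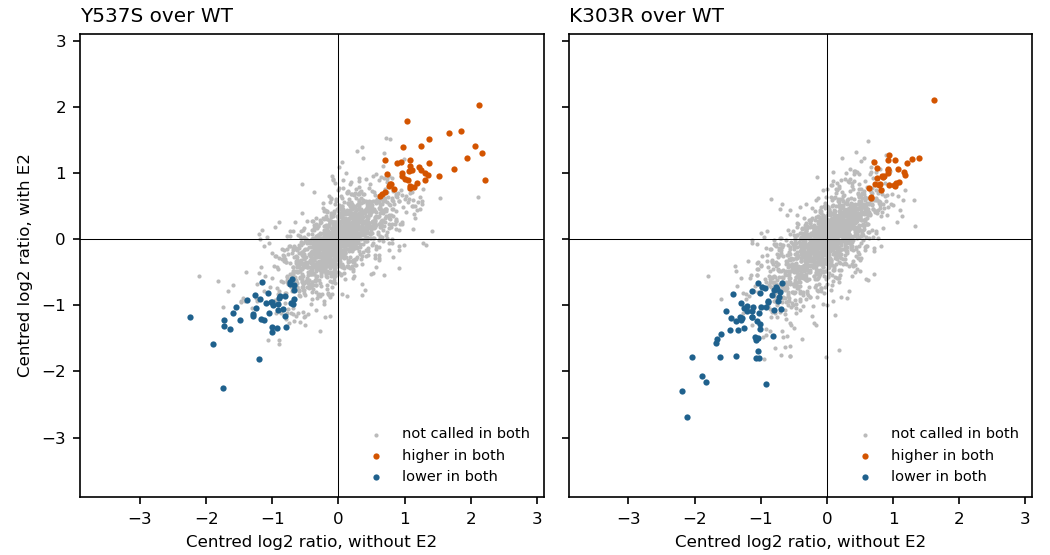
Log2 ratios of single well-covered chromosome 6 regions after subtraction of the chromosome median, without E2 (horizontal) and with E2 (vertical), for Y537S over WT (left) and K303R over WT (right). Orange points are regions called higher in both treatments (42 and 31) and blue points regions called lower in both (44 and 59).

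The loci farthest above the chromosome median in Y537S were ranked by the Y537S over WT ratio, so their low WT counts follow from the ranking. The first, chr6:136959322-136959910, lies 34 kb from SLC35D3, of the nucleotide-sugar transporter family. It had 99 fragments in Y537S with E2 and 98 in Y537S without E2, 45 and 27 in K303R with and without E2, and 29 and 30 in WT with and without E2. Both Y537S libraries lay above all others, although they are the low libraries for the chromosome as a whole. Its centred Y537S over WT ratio was 4.06 (95% counting interval 2.66 to 6.38) with E2 and 4.36 (2.87 to 6.81) without E2; uncentred it was 3.11 and 3.30.

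The second was inside JARID2, which encodes a cofactor of the Polycomb repressive complex, at chr6:15504459-15505630. It had 94 and 81 fragments in Y537S with and without E2, 72 and 56 in K303R, and 36 and 30 in WT. This was the 1 chromosome 6 region called higher than WT in both mutants: the centred ratio was 3.11 with E2 and 3.61 without E2 in Y537S, and 2.35 and 2.61 in K303R. Another region 24 kb outside JARID2 was among the strongest of the chromosome and showed no such difference, with 184 and 190 fragments in Y537S, 324 and 268 in K303R, and 296 and 316 in WT.

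Regions 166 kb from CEP162, a cilium assembly gene, and 378 kb from EYS, a retinal matrix gene, were highest in Y537S and lowest in K303R. The CEP162 region had 100 and 95 fragments in Y537S with and without E2, 33 and 13 in K303R, and 39 and 40 in WT. The EYS region had 116 and 91 in Y537S, 24 and 14 in K303R, and 52 and 29 in WT. As given above, the ranking and the minimum mean favour this gap between Y537S and the other libraries, so it is not a separate result. The other 6 of the 10 were near DACT2, a modulator of WNT and TGF-beta signalling (36 kb), near TULP4, of the Tubby family (3.4 kb), and in RPS6KA2 (an ERK-activated kinase), VWA7, BACH2 (a repressor in lymphocytes) and PACSIN1 (an endocytic adaptor), with centred ratios of 2.14 to 2.87 with E2 and 2.32 to 4.51 without E2.

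The loci farthest below the chromosome median in Y537S were ranked in the same way. A region in PTPRK, a receptor-type tyrosine phosphatase, at chr6:128246358-128246982 had 15 and 19 fragments in Y537S with and without E2, 42 and 57 in K303R, and 85 in each WT library. Its centred ratio was 0.210 (0.113 to 0.366) with E2 and 0.299 (0.171 to 0.495) without E2. The strongest region in PTPRK, at chr6:128195328-128196396, was not called in Y537S: 131 and 121 fragments in Y537S, 91 and 92 in K303R, and 178 and 176 in WT, with centred ratios of 0.876 and 0.918. Sites of 1 gene thus differed from each other in the same libraries.

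Sites near HEY2, a Notch target repressor (32 kb), and near CAP2, an actin regulator (4.1 kb), were low in Y537S. The HEY2 region, chr6:125717299-125718503, had 43 and 28 fragments in Y537S with and without E2, 179 and 152 in K303R, and 154 and 139 in WT. The CAP2 region, chr6:17389235-17389801, had 51 and 38 in Y537S, 196 and 210 in K303R, and 155 and 158 in WT. Higher WT counts at both sites follow from the ranking, and the uncentred counts also carry the low level of Y537S on the whole chromosome. The centred Y537S over WT ratios were 0.332 at HEY2 and 0.392 at CAP2 with E2, and 0.269 and 0.321 without E2. The centred K303R over WT ratios were 1.36 and 1.48 with E2, and 1.53 and 1.86 without E2, and only those without E2 were called higher.

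The other 7 of the 10 lowest lay 57 kb from CD24, a surface glycoprotein, in DOP1A, an endosomal trafficking gene, 452 kb from MARCKS, a protein kinase C substrate, in ESR1, 1.2 kb from RIOK1, a kinase of ribosome maturation, 771 kb from NRSN1, a neuronal vesicle gene, and in KCNQ5, a potassium channel gene. Their centred ratios ran from 0.283 to 0.448 with E2 and from 0.211 to 0.445 without E2. The RIOK1 site had 25 and 15 fragments in Y537S with and without E2, 60 and 58 in K303R, and 67 and 95 in WT, which is the lowest ratio among the 10 without E2. The KCNQ5 site had 32 and 25 in Y537S, 69 and 41 in K303R, and 85 and 82 in WT.

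**Figure D5:**
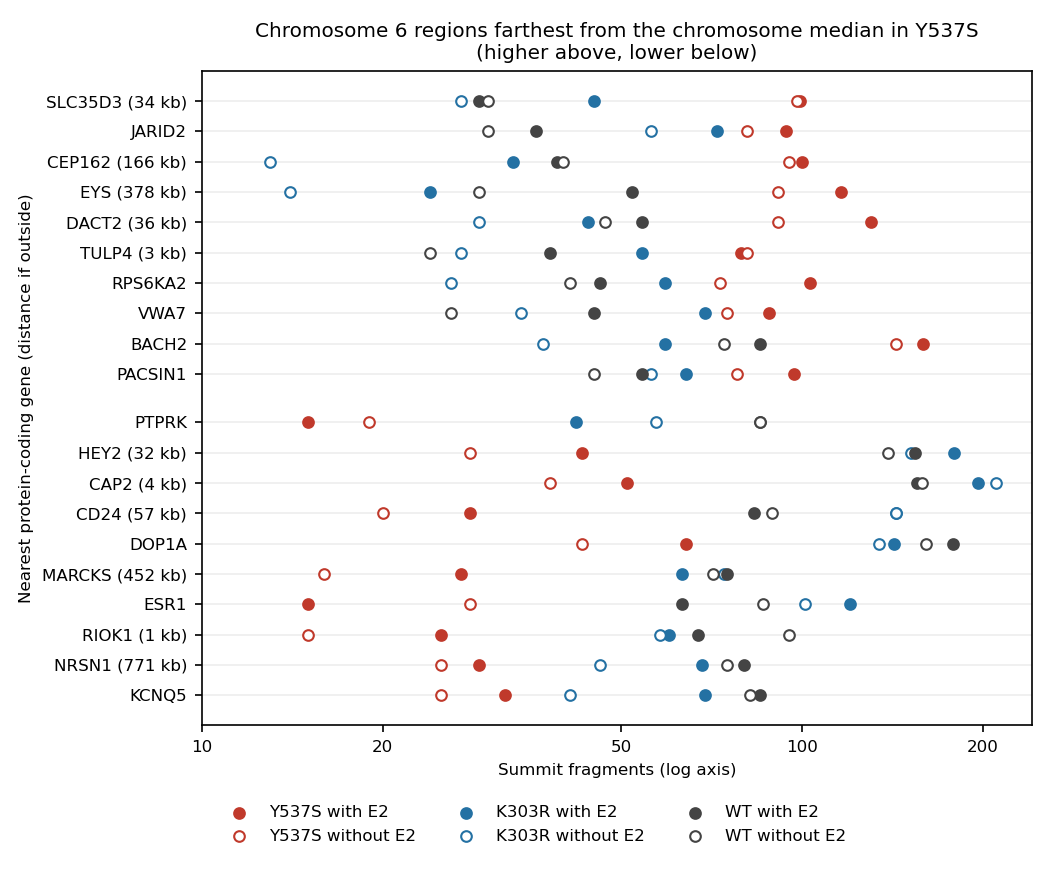
Summit fragments (log axis) in each library at the 10 regions farthest above and the 10 farthest below the chromosome 6 median in Y537S over WT, named by the nearest protein-coding gene with its distance when the region is outside it. At the upper 10 both Y537S points lie to the right of the WT points, from 73 to 159 fragments, and at the lower 10 to the left of them, from 15 to 64. The regions were ranked by this ratio, so the separation follows from the ranking.

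In K303R the highest site was 650 bp from KCNK17, a potassium leak channel gene, at chr6:39297995-39298605, with 27 and 45 fragments in Y537S with and without E2, 113 and 86 in K303R, and 31 and 39 in WT. Its centred K303R over WT ratio was 4.28 (2.85 to 6.59) with E2 and 3.09 (2.09 to 4.63) without E2. Both K303R libraries stood above all others, but the region was ranked by K303R over WT. It met the minimum mean of 50 fragments only through its K303R counts. SPDEF, an ETS factor of secretory epithelia, held 2 of the 5 highest: the site at chr6:34543780-34544410 had 84 and 52 fragments in Y537S, 110 and 87 in K303R, and 56 and 50 in WT. The other, chr6:34538501-34539015, had 43 and 54 in Y537S, 129 and 124 in K303R, and 68 and 75 in WT. A site in ZDHHC14, a palmitoyltransferase gene, completed the 5 with JARID2, at ratios of 2.08 and 2.11.

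Ranked by the smaller of the differences in both treatments, the first K303R-low site, 105 kb from ARG1, the arginase of the urea cycle, had 60 and 47 fragments in Y537S with and without E2, 16 and 15 in K303R, and 92 and 96 in WT. The EPB41L2 site, whose promoter window is printed above, had 78 and 54 in Y537S, 12 and 15 in K303R, and 91 in each WT library; its centred K303R over WT ratio was 0.155 (0.0771 to 0.284) with E2 and 0.231 (0.124 to 0.401) without E2. Another EPB41L2 promoter, at chr6:131063196-131063495, held a site of 118 and 103 fragments in Y537S, 122 and 128 in K303R, and 117 and 124 in WT. So the 2 start sites of 1 gene differed in the same K303R libraries. Sites 299.7 kb from EPHA7, an ephrin receptor gene, 118 kb from KHDRBS2, an RNA-binding splicing regulator, and 209 kb from HSF2, a heat shock factor, had ratios of 0.223 to 0.291 with E2 and 0.244 to 0.282 without E2.

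The SLC35B2 promoter site with the full element was called in no comparison of a mutant with WT, at 71 and 54 fragments in Y537S with and without E2, 85 and 80 in K303R, and 116 and 91 in WT. The DSP-AS1 site had 82 and 75 in Y537S, 42 and 34 in K303R, and 37 and 51 in WT, a centred Y537S over WT ratio of 2.64 with E2 and 1.96 without E2, and was called in both. Of the 29 promoter windows with a summit, DSP-AS1 was the 1 called in both treatments for Y537S and EPB41L2 the 1 for K303R; other well-known genes among them, HLA-B, HLA-C and HLA-F of antigen presentation, FOXO3, a forkhead factor, and PERP, a desmosome gene, were not called in Y537S in either treatment.

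Few regions were called in both mutants. Of the 42 regions higher in Y537S, 1 was higher and 1 lower in K303R, and of the 44 lower ones, 2 were higher and 5 lower, where 1.89% of all well-covered chromosome 6 regions were higher and 3.59% lower in K303R. Both sets use the same WT libraries, so a shared direction is not independent. The direct comparison of Y537S with K303R called 177 regions higher and 158 lower with E2 (10.8% and 9.62%), against 10.4% and 9.86% of all regions, and 177 higher and 190 lower without E2, against 11.7% and 12.3%. The chromosome median of Y537S over K303R was −0.33 with E2 and −0.34 without E2.

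ESR1 itself held 6 well-covered regions, of which 1 was called in Y537S in both treatments. This site, chr6:151657975-151658887, had 15 and 28 fragments in Y537S with and without E2, 120 and 101 in K303R, and 63 and 86 in WT. A site at chr6:151828396-151829115, the strongest of the gene, had 123 and 99 in Y537S, 94 and 68 in K303R, and 118 and 98 in WT, with centred Y537S over WT ratios of 1.24 and 1.35, neither called.

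Gene groups on the chromosome were read through the well-covered regions within 25 kb of their genes. Of 163 genes in 11 lists, all were matched to RefSeq symbols and 89 had such a region. The counts below are of regions called in both treatments and stand beside 2.56% higher and 2.68% lower in Y537S over WT, and 1.89% higher and 3.59% lower in K303R over WT, among all 1643 well-covered chromosome 6 regions. With lists of 4 to 54 regions these shares amount to few regions each way. Among the gene neighbourhood and targets of ERα (9 genes, 7 with 29 regions), 0 regions were higher and 2 lower in Y537S, and 1 was higher and 4 lower in K303R; the median centred Y537S over WT log2 ratio was 0.01 with E2 and −0.07 without E2, where all chromosome 6 regions have 0. The 2 were the ESR1 site above and a site 18 kb from VEGFA, the angiogenic growth factor, at 94 and 91 fragments in Y537S with and without E2, 205 and 217 in K303R, and 175 and 203 in WT. TPD52L1, MYB and CCDC170 had strong sites that were not called, for example 167 and 154 fragments in Y537S, 220 and 183 in K303R, and 212 and 224 in WT at MYB, a proto-oncogene.

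Hormone and stress response genes stayed near the chromosome median: of 12 genes, 8 had 14 regions, none of which was called in either mutant in both treatments, with medians of −0.09 with E2 and −0.07 without E2. FKBP5, the chaperone induced by androgen and glucocorticoid receptors, had 121 and 90 fragments in Y537S with and without E2, 110 and 116 in K303R, and 139 and 134 in WT at its strongest site. CDKN1A, the p21 cell cycle inhibitor, had 155 and 133 in Y537S, 162 and 127 in K303R, and 161 and 163 in WT. Both are low in Y537S by about as much as the chromosome or less, with centred ratios of 0.897 to 1.15.

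Growth signalling genes (18, of which 15 had 54 regions) had 0 regions higher and 3 lower in Y537S, and 0 higher and 4 lower in K303R, with Y537S over WT medians of −0.0040 with E2 and −0.07 without E2. One of the 3 was the strongest site of FRK, a Src-family kinase, at 93 and 100 fragments in Y537S with and without E2, 225 and 204 in K303R, and 219 and 216 in WT. FYN, the related kinase, was not called at its strongest site, at 211 and 180 in Y537S, 243 and 197 in K303R, and 269 and 273 in WT. Developmental and lineage factors (20 genes, 11 with 22 regions) had 1 region higher and 0 lower in Y537S, the JARID2 site, with medians of 0.31 with E2 and 0.05 without E2; in K303R they had 3 higher and 0 lower, among them one near PRDM1, the BLIMP1 repressor, at 54 and 58 fragments in Y537S, 82 and 89 in K303R, and 42 and 61 in WT.

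Neuronal genes (15, 7 with 39 regions) had 2 regions higher and 3 lower in Y537S, and 0 higher and 4 lower in K303R. Growth suppressors and chromatin genes (9, 7 with 43 regions) had 2 higher and 0 lower in Y537S and none called in K303R. The strongest site of RIMS1, a synaptic scaffold gene, had 176 and 147 fragments in Y537S with and without E2, 63 and 41 in K303R, and 102 and 91 in WT. That of SASH1, a signalling adaptor gene, had 177 and 161 in Y537S, 150 and 104 in K303R, and 134 and 139 in WT. The medians were −0.07 with E2 and 0.08 without E2 for the neuronal list and −0.04 and 0.01 for the growth suppressors.

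Antigen presentation and immune genes (25, 10 with 16 regions) had 1 region higher and 0 lower in Y537S, in BACH2, and none called in K303R, with medians of 0.10 with E2 and 0.23 without E2. The cell cycle and replication list (13 genes, 5 with 7 regions) had 0 higher and 1 lower in Y537S, in KIF13A, a kinesin gene, and none called in K303R, and its medians were the lowest of the lists with E2 at −0.48, and −0.34 without E2. Histone cluster genes (12, 4 with 4 regions), housekeeping genes (10, 6 with 11 regions) and transport and metabolism genes (20, 9 with 26 regions) had none called in Y537S and 1 called in K303R, a lower one in the transport list, with Y537S over WT medians of −0.10, −0.05 and −0.24 with E2 and −0.47, −0.15 and −0.08 without E2. The share of genes with a well-covered site within 25 kb was 10 of 25 for the antigen presentation list and 4 of 12 for the histone list, against 15 of 18 for growth signalling.

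Few chromosome 6 regions differed between E2 and no E2 within a line. In WT cells 15 regions were higher with E2 than without (0.913%), against 1.6% on all chromosomes, and 10 were lower (0.609%), against 0.607%. In Y537S cells 1 was higher (0.0609%), against 0.0892%, and 3 were lower (0.183%), against 0.0773%. In K303R cells 19 were higher (1.16%), against 2.39%, and 8 were lower (0.487%), against 0.794%. The chromosome medians of E2 over no E2 were −0.01 in Y537S, −0.07 in K303R and −0.02 in WT, so the low level in Y537S was about as large with E2 as without it.

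The WT regions highest with E2 lay 81 kb from RNGTT, the mRNA capping enzyme, in ERMARD, in ITPR3, an inositol trisphosphate receptor, 84 kb from FOXC1 and in FOXP4, both forkhead factors. The RNGTT site had 103 fragments in each Y537S library, 43 and 26 in K303R with and without E2, and 79 and 32 in WT. The ERMARD site had 103 and 94 in Y537S, 63 and 27 in K303R, and 66 and 27 in WT. At both sites Y537S without E2 was as high as Y537S with E2. The WT regions lowest with E2 lay in FAM184A, 470.2 kb from LOC124901498, 25 kb from CCN2, a matricellular growth factor, 4.8 kb from NR2E1, an orphan nuclear receptor, and 250.4 kb from FRK, with ratios of 0.485 to 0.541.

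In Y537S the 1 region higher with E2 lay 28 kb from CNR1, a cannabinoid receptor, at 77 fragments with E2 and 34 without E2, a centred ratio of 2.02 (1.33 to 3.12). Among the 3 lower ones were sites 519 kb from EYS and 509 kb from CITED2, a coactivator-binding protein, with ratios of 0.516 and 0.623. In K303R the highest was in SLC44A4, a choline transporter-like gene, at 71 fragments with E2 and 18 without E2, a ratio of 3.35 (1.97 to 5.97); Y537S had 87 and 64 there and WT 61 and 41. Sites near KIF6, SGK1 and CLIC5 and in SH3BGRL2 followed at 2.48 to 2.68, the SGK1 site at 277 kb from that glucocorticoid-induced kinase. The 5 lowest in K303R lay near RFPL4B, SYNCRIP, CD83 and MMS22L and in EYS, at 0.289 to 0.504. No chromosome 6 region was called in opposite directions by E2 in any pair of lines, and 1 was called higher in both WT and K303R. Over all chromosomes 1 region was called in opposite directions in WT and Y537S, and 0 in the other pairs. With so few E2 calls, the lack of opposite ones is not read as agreement between lines.

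The strongest sites of the chromosome, by deposited p, lay on both sides of the chromosome median in Y537S. The site in OGFRL1, at chr6:71293902-71294694, had 310 and 294 fragments in Y537S with and without E2, 353 and 331 in K303R, and 338 and 352 in WT, a centred Y537S over WT ratio of 1.09 (0.933 to 1.28) with E2 and 1.12 (0.952 to 1.31) without E2. That in LGSN, a lens glutamine synthetase-like gene, had 294 and 262 in Y537S, 331 and 293 in K303R, and 350 and 343 in WT, with ratios of 1.00 and 1.02. A site in SDHAF4, an assembly factor of succinate dehydrogenase, was the highest of these relative to the chromosome, at 290 and 285 in Y537S, 263 and 227 in K303R, and 232 and 260 in WT, with ratios of 1.49 (1.25 to 1.78) and 1.46 (1.23 to 1.74). The site 24 kb from JARID2 was the lowest of them, with ratios of 0.740 (0.612 to 0.892) with E2 and 0.803 (0.667 to 0.965) without E2. The others were 739 kb from ADGRB3 and in LRP11, with ratios of 0.996 to 1.13 with E2 and 0.936 to 1.12 without E2.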

How the data were processed

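The 6 lists hold peaks of ERα ChIP-seq called separately in each library (2 ng of DNA from 2 plates, paired reads of 75 bp), in hg38. Bowtie2, SAMtools, Picard, bedtools and MACS2 appear, without version or role, in the submitters' processing notes. Neither a control library nor a peak threshold is stated in the labels or file headers. The deposited fold enrichment is the authors' ratio of summit fragments to local background, each plus 1. The deposited −log10 p and −log10 q are the authors' values from their peak caller. The deposited score, 10 times the −log10 q, was not used.

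Summit fragments and local background were solved from the deposited fold and −log10 p under a Poisson model; the p recomputed from them matched within 0.01% at 100% of peaks in every list. Total reads per library are unknown. The lists hold 106186 to 125850 peaks, with 3010093 to 4214112 summit fragments at the 33626 well-covered regions. Peaks overlapping by 1 bp were merged. Ratios divide each library by its median over regions in all 6 lists with a mean of at least 50 summit fragments; centring subtracts the chromosome's median log2 ratio. A call needs 1.5-fold and an exact conditional binomial interval at an error level of 0.001 that excludes 1; printed intervals are 95%. Intervals cover counting error only, and fragments amplified by PCR are not independent molecules. With 1 library per group no replicate spread could be measured and no p-value across regions was computed. Scripts were tested on simulated data.

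Regions were named by rule: the 10 highest and 10 lowest in Y537S over WT called in both treatments, 5 each way in K303R over WT and in each E2 comparison, and the 3 with the highest −log10 p in each library. One region that this rule names is not reported here. Genes are the nearest protein-coding genes of RefSeq (GRCh38.p14) and the strongest region within 25 kb of listed genes; promoter examples, second sites of a gene and the members of gene lists named in the text were picked after their values were seen. The chromosome, the members and the gene lists were chosen with earlier results of these data known. Alternatives changed the minimum mean (20, 100), the fold (2), the centring (none, 5 Mb window), the scaling, the merge overlap (50 bp) and the −log10 q (10). Python 3.11.15, numpy 2.4.6, scipy 1.17.1, pandas 2.3.3 and matplotlib 3.10.9 were used.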

Additional observations from a re-analysis of the deposited data

Results flagged for a closer look

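At 3 of the 1643 well-covered chromosome 6 regions the mutants differed from WT in opposite directions in both treatments after centring on the chromosome. Of the 1643, 42 were called higher and 44 lower in Y537S, and 31 higher and 59 lower in K303R. The share of such opposite calls over all chromosomes is not given, so 3 is not read as many or few. The difference between the mutants was not tested, since each group is 1 library. The region in ESR1 (chr6:151657975-151658887), described above, had a centred Y537S over K303R ratio of 0.126 (95% counting interval 0.0684 to 0.216) with E2 and 0.259 (0.164 to 0.397) without E2. The region 57 kb from CD24 (chr6:106913020-106914072) had 28 and 20 fragments in Y537S with and without E2, 143 in each K303R library, and 83 and 89 in WT, with a Y537S over K303R ratio of 0.197 with E2 and 0.131 without E2. The region 325 kb from KHDRBS2 (chr6:61217569-61218190) had 93 and 107 in Y537S, 16 and 18 in K303R, and 64 and 65 in WT, with ratios of 5.86 and 5.55. With centring on 5 Mb windows the KHDRBS2 region was no longer called in K303R over WT in either treatment, nor in Y537S over WT with E2, so the opposite call ends there; the ESR1 and CD24 regions kept theirs. It lies in the 60 to 65 Mb window, where K303R was lowest along the chromosome at −0.81 with E2 and −0.93 without E2. The deposited fold at the KHDRBS2 site was 21.9 in both Y537S libraries, 8.02 and 8.66 in K303R, and 18.7 and 17.2 in WT.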

How the results depend on the processing

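No paired analysis was possible because the groups have 1 library each and so share fewer than 2 replicate numbers; an additive model of line and treatment over the 6 libraries was not run. Scaling by the lowest local background of each library, in place of its median, moved the chromosome 6 medians. They became −0.20 with E2 and −0.13 without E2 for Y537S over WT, and −0.19 and −0.47 for K303R over WT. For Y537S over K303R they became −0.0088 and 0.37 (reversed). For E2 over no E2 they became 0.079 in WT and 0.33 in K303R (both reversed). Any such scaling moves all regions by the same amount. Chromosome 6 minus all regions therefore had to stay at −0.32 and −0.34 for Y537S over WT. The median of ratios, an alternative added after seeing the data, gave −0.32 and −0.34, −0.098 and −0.076, and −0.26 and −0.28 for these mutant comparisons and −0.033 for E2 in K303R. It subtracts the median of all regions, so it equals chromosome 6 minus all regions by construction. A minimum mean of 100 gave −0.34 and −0.37 for Y537S over WT and −0.27 for Y537S over K303R with E2; a minimum of 20 gave 0 for E2 in WT and 0.012 for E2 in Y537S. Without centring, 7 regions were higher and 240 lower in Y537S over WT, and 15 lower with E2 in K303R. A 2-fold limit left 17 higher and 18 lower in Y537S, 7 and 37 in K303R, 4 and 1 with E2 in WT, 12 and 4 with E2 in K303R, and 0 lower with E2 in Y537S. A minimum mean of 20 widened the chromosome 6 set to 3221 regions, against 1643 in the main setting, so its counts have another base. It gave 77 regions higher in Y537S and 57 in K303R. With E2 it gave 30 higher and 26 lower in WT, 5 and 7 in Y537S, and 39 and 13 in K303R. Shares over all chromosomes are not given for the 2-fold limit, this minimum mean or the 5 Mb centring. Centring on 5 Mb windows gave 2 higher with E2 in Y537S and 6 lower with E2 in WT. With peaks of −log10 q of at least 10, the lists held 62.2% and 60.4% of chromosome 6 regions for Y537S with and without E2, 61.7% and 58.5% for K303R, and 75.4% and 78.4% for WT. The causes were not tested. Of all calls in both treatments, 5 Mb centring kept 35 of 42 higher and 36 of 44 lower in Y537S over WT, and 17 of 31 higher and 35 of 59 lower in K303R over WT. Of 84 calls at named regions, which are the most extreme, 79 held with 5 Mb centring and 79 without centring. For Y537S over WT 40 of 40 and 35 of 40 held, the lost ones being at TULP4, RPS6KA2, VWA7 and PACSIN1. Without centring, lower calls could not be lost, since the chromosome medians of these comparisons are negative on the log2 scale. Near the minimum mean, counting error leaves differences above 1.5-fold uncalled: a site of 50 fragments at the AKAP7 promoter had a centred Y537S over WT ratio of 1.80 without E2 and was not called.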
